A study of Mus musculus with 9 samples.

Results

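Sox7, Sox17 and Sox18 make up the SoxF group of the Sox family, DNA-binding transcription factors with a high-mobility-group (HMG) box. The genes were chosen by name, with earlier results of these data known. They are 3 of the 21776 protein-coding genes used here and were located on a RefSeq gene table of GRCm38, the assembly called mm10. For each of them, the peaks of 6 lists were recorded within 1000 bp either side of each annotated gene end, inside the gene, and within 50 kb of it. The lists came from chromatin immunoprecipitation followed by sequencing (ChIP-seq) with an Hdac1 or an Hdac2 antibody in haemogenic endothelium, the endothelium that gives rise to blood cells, derived in culture from mouse embryonic stem (ES) cells. Each of 3 ES lines of strain C57BL/6 gave 1 Hdac1 and 1 Hdac2 list: Hd1_loxlox and Hd2lox at passage 25 to 30, and Bry at passage 16 to 19. The deposited Hdac1 list of Hd2lox carries the line name Hd2loxlox, and it was assigned to Hd2lox by its sample title. The labels record no treatment, no time point and no allele beyond the names of the lines. Line and passage cannot be told apart where Bry is set against the other lines, while Hd1_loxlox and Hd2lox share a passage range. Each antibody therefore had n = 3 lists, and each line with an antibody had 1.

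Hdac1 and Hdac2 are closely related histone deacetylases that remove acetyl groups from histone tails as the catalytic part of the Sin3, NuRD and CoREST complexes, which are often associated with repression but are also found at active promoters. SoxF factors act in endothelium. Sox17 is a regulator of definitive endoderm, of arterial and haemogenic endothelium and of fetal blood stem cells, Sox7 is expressed in early haemogenic endothelium and holds back blood formation when it stays on in mouse ES cell cultures, and Sox18 is needed for lymphatic vessel development in the mouse. The 3 proteins bind closely similar sites and can partly stand in for each other.

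The 6 lists held 46202 peaks in all, between 5161 and 9279 per list, with median widths between 822 and 1475 bp. They give positions only, with no score or read count, so depth is unknown, and a missing peak can also mean that reads were too few to call it. The Hdac2 list of Hd1_loxlox stood apart from the rest, with 2.73% of protein-coding genes carrying a peak at an end, against 13.5% for Hdac2 in Hd2lox, 34.6% for Hdac2 in Bry, and 31.8%, 24.4% and 32.1% for Hdac1 in Hd1_loxlox, Hd2lox and Bry. The labelled cell type could not be checked against markers, because peak positions carry no expression.

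Hdac1 lay at an end of all 3 SoxF genes in Hd1_loxlox and Hd2lox and at Sox17 and Sox18 in Bry. Hdac2 lay at an end of all 3 in Bry and of none in Hd1_loxlox or Hd2lox. Sox17 and Sox18 thus had a peak at an end in 4 lists each, 3 of Hdac1 and 1 of Hdac2, and Sox7 in 3 lists, 2 of Hdac1 and 1 of Hdac2. Among all protein-coding genes 30.3% had Hdac1 at an end in at least 2 of 3 lines and 14.6% in all 3, and 10.6% had Hdac2 at an end in at least 2 lines. At least 4 of 6 lists were reached by 16.3% of genes and at least 3 by 28.8%. The map of the genes and their surroundings shows 24 peaks within 50 kb, of which 13 touched the end windows of the SoxF genes.

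**Figure D1:**
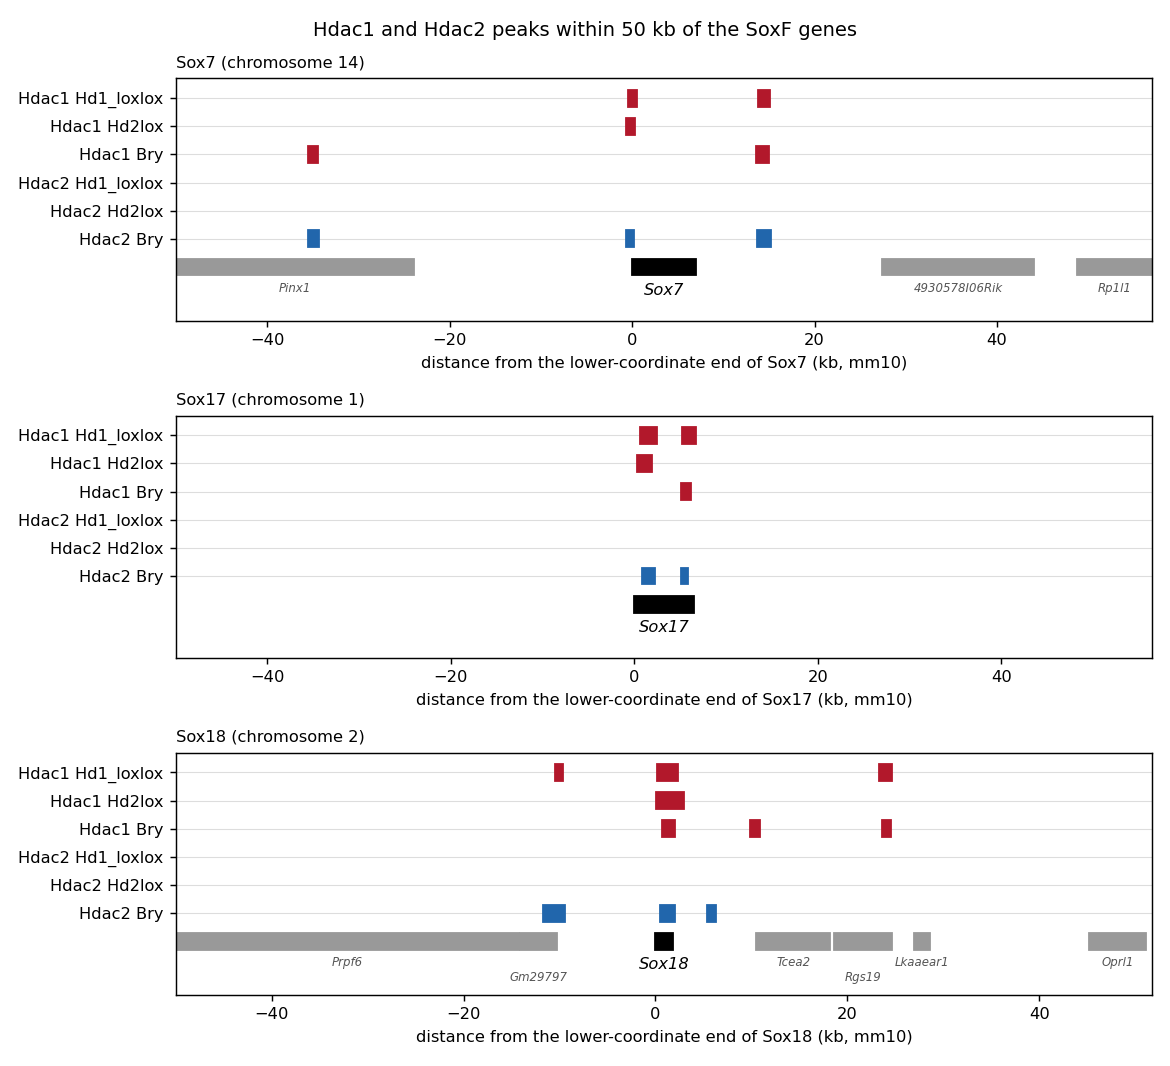
Peaks within 50 kb of Sox7, Sox17 and Sox18 in each list (red, Hdac1; blue, Hdac2), drawn to scale against the distance in kb from the lower-coordinate end of each gene, with the gene in black and protein-coding neighbours in grey. The rows for Hdac2 in Hd1_loxlox and in Hd2lox hold no peak in any of the 3 windows, and all peaks near Sox17 lie over the gene.

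Sox18 (gene ID 20672, chromosome 2, 181669837-181671640) had the longest covered stretch of the 3. It is a short gene of 1804 bp with 1 annotated transcript, and its end windows join into 1 window of 3804 bp. Hdac1 peaks covered 2149 bp of that window in Hd1_loxlox, 2747 bp in Hd2lox and 1320 bp in Bry, and Hdac2 peaks covered 0, 0 and 1558 bp in the same lines. All 3 Hdac1 lists were covered, while among the Hdac2 lists the window was covered in Bry and bare in the other two.

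The Sox18 peaks all ran over its upper end. The Hdac1 peak lay at 181670044-181672192 in Hd1_loxlox, at 181669894-181672836 in Hd2lox and at 181670518-181671837 in Bry, and the Hdac2 peak of Bry at 181670315-181671872. The 4 peaks had 1320 bp in common, which is the whole Bry Hdac1 peak. The Hd2lox Hdac1 peak was 2943 bp wide, and 98.1% of the peaks of its list were no wider. It covered 96.8% of the gene body, against 88.5% for Hdac1 in Hd1_loxlox, 62.3% for Hdac1 in Bry and 73.5% for Hdac2 in Bry. Sox18 is transcribed towards lower coordinates, which is general knowledge and is not recorded in the gene table, so its upper end is its start.

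The Sox18 coverage ranked high among genes with a peak at an end in the Hdac1 lists of Hd2lox and Hd1_loxlox. As much covered length or more was found at 0.357% of such genes for Hdac1 in Hd2lox and at 1.86% for Hdac1 in Hd1_loxlox. For Bry the shares were 49.9% for Hdac1 and 23.8% for Hdac2, so Sox18 lay near the middle of the Bry Hdac1 list. Most genes have 2 separate end windows, each of which can hold at most 2001 bp of a peak. The joined window of Sox18 can hold up to 3804 bp of 1 peak, so these shares do not compare like with like. By width alone, 86.1% of the Hdac1 peaks of Hd1_loxlox and 98.1% of those of Hd2lox were no wider than the Sox18 peak.

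Sox17 (gene ID 20671, chromosome 1, 4490928-4497426, 6499 bp) carried its peaks in 2 places, a lower one inside the gene and an upper one inside or across its upper end. The table lists 9 transcript accessions for it, so an outer end need not be the start in use. The lower place was occupied by Hdac1 at 4491562-4493371 in Hd1_loxlox and at 4491245-4492832 in Hd2lox and by Hdac2 at 4491785-4493169 in Bry, with 1048 bp common to the 3 peaks. The upper place was occupied by Hdac1 at 4496118-4497599 in Hd1_loxlox and at 4496045-4497086 in Bry and by Hdac2 at 4495975-4496824 in Bry, with 707 bp in common. Hdac1 in Hd1_loxlox and Hdac2 in Bry were thus at both places, Hdac1 in Hd2lox at the lower and Hdac1 in Bry at the upper one. The Hdac1 lists of Hd2lox and Bry had no overlapping peak at Sox17, although both are counted as having Hdac1 at an end. Sox17 is transcribed towards lower coordinates, again as general knowledge, which puts the upper place on the side of its start and the lower place towards the end of its transcript.

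Covered length in the end windows of Sox17 was 1541 bp for Hdac1 in Hd1_loxlox, 684 bp in Hd2lox and 661 bp in Bry, and for Hdac2 it was 0 bp in Hd1_loxlox, 0 bp in Hd2lox and 543 bp in Bry. All Hdac1 values were above all Hdac2 values, though the 2 values of Bry were close. The peaks reached only partly into the windows, and that of Hdac2 at the lower place filled 144 bp of its window. When at least 50% of a peak had to lie inside the windows, 2 lists in place of 4 had Sox17. Counted over the gene body, coverage was 48.0% for Hdac1 in Hd1_loxlox, 24.4% in Hd2lox and 16.0% in Bry, and 34.4% for Hdac2 in Bry, so that in Bry more of the gene was covered by Hdac2 than by Hdac1. Of the genes with an Hdac1 peak in the body in Hd1_loxlox, 2.91% had as many covered bases in it as Sox17 or more, and the same share was 25.0% for Hdac1 in Hd2lox, 44.3% for Hdac1 in Bry and 7.23% for Hdac2 in Bry. At the end windows it was 31.8% for Hdac1 in Hd1_loxlox, 92.4% in Hd2lox and 94.2% in Bry, and 95.1% for Hdac2 in Bry.

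Sox7 (gene ID 20680, chromosome 14, 63943706-63950732, 7027 bp, 1 annotated transcript) had narrow peaks at its lower end. The Hdac1 peaks lay at 63943221-63944260 in Hd1_loxlox and at 63943095-63944012 in Hd2lox, and the Hdac2 peak at 63943021-63943945 in Bry, with 725 bp in common. Their widths were 1040, 918 and 925 bp, and 8.79%, 4.91% and 9.52% of the peaks of those lists, in the same order, were no wider. Sox7 is transcribed towards higher coordinates, as general knowledge, so these peaks lie over its start, and no list had a peak at its upper end. Bry had no Hdac1 peak at Sox7. In that list, the nearest Hdac1 peak lay 6502 bp beyond the upper end.

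**Figure D2:**
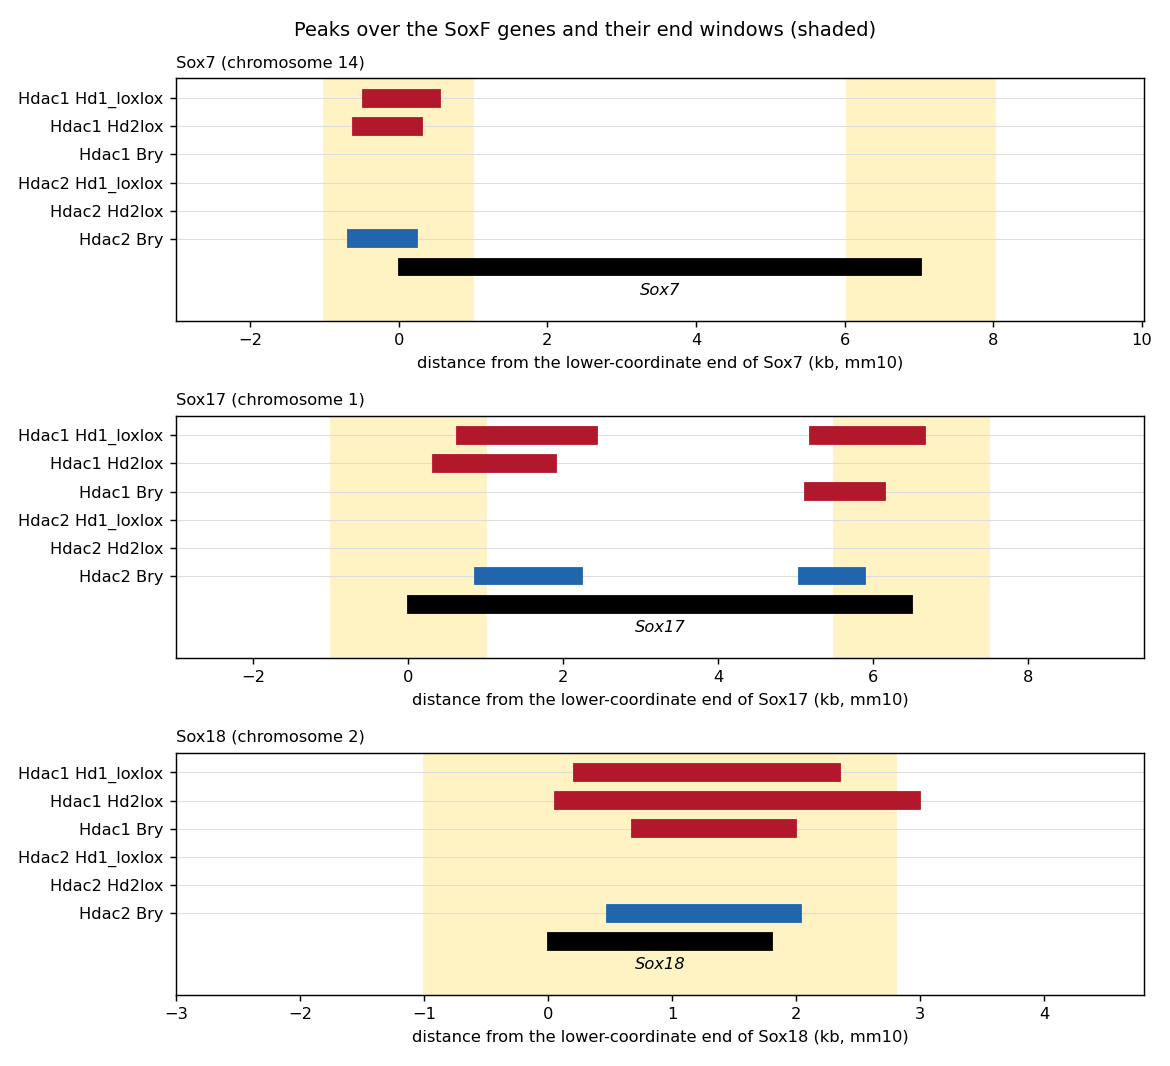
Peaks over each SoxF gene by list (red, Hdac1; blue, Hdac2), with the gene in black and the windows of 1000 bp either side of each annotated end shaded; the horizontal axis is the distance in kb from the lower-coordinate end. Peaks lie over the lower end of Sox7, at 2 places along Sox17 and over most of Sox18. Peaks of both antibodies overlap at each of these places. At Sox7 and at the lower place of Sox17 they come from different lines, Hdac1 from Hd1_loxlox and Hd2lox and Hdac2 from Bry.

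The combination of lists at Sox7 was shared by 148 protein-coding genes including Sox7, or 0.680% of all. With 6 lists many exact combinations are possible, so a low share for a single combination does not set Sox7 apart. The combination at Sox17 and Sox18, Hdac1 in all 3 lines with Hdac2 in Bry alone, held for 1364 genes, or 6.26%. Among the 3185 genes with Hdac1 at an end in all 3 lines, 91.1% had Hdac2 in Bry, 50.0% had it in Hd2lox and 5.68% in Hd1_loxlox, and 42.8% had Sox17's and Sox18's combination. The absence of Hdac2 at these genes in Hd1_loxlox was therefore shared with most genes of that kind. For Bry, 23.6% of the 7532 genes with Hdac2 at an end had no Hdac1 there, as Sox7.

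The 2 antibodies were then compared over the lines by the number of bases covered. At the gene ends, coverage for Sox18 averaged 2072 ± 716.6 bp for Hdac1 and 519 ± 899.5 bp for Hdac2 (SD, n = 3 each), a difference of 1553 bp (exact two-sided permutation p = 0.2). For Sox17 it was 962 ± 501.6 bp for Hdac1 and 181 ± 313.5 bp for Hdac2 (SD, n = 3 each), a difference of 781 bp with exact permutation p = 0.1, the smallest that 3 lists against 3 allow. Groups that did not overlap with Hdac1 higher, as at Sox17, were found at 4.25% of all protein-coding genes. For Sox7 the means were 653 ± 568.5 bp for Hdac1 and 308 ± 534.0 bp for Hdac2 (SD, n = 3 each), a difference of 344 bp (exact permutation p = 0.7). The test was run for all 21776 genes, and the Benjamini-Hochberg adjusted exact permutation p was 1 for each of the 3. No difference between the antibodies was detectable at any SoxF gene in this design, and 0 genes of the whole table had an adjusted or an unadjusted exact permutation p under 0.05, which 3 lists against 3 cannot reach. The labels do not say that the lists came from separate experiments, so the p-values measure the spread between these lists, which may be technical in part. Each target had its own antibody, from different suppliers, so target and antibody cannot be told apart in these differences.

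Line by line, the direction at the gene ends was not the same. Hdac1 minus Hdac2 was 2149 bp in Hd1_loxlox, 2747 bp in Hd2lox and -238 bp in Bry for Sox18. The values for Sox17 were 1541, 684 and 118 bp in the same order of lines, and those for Sox7 were 1040, 918 and -925 bp. In Hd1_loxlox and Hd2lox the differences equal the Hdac1 values, since no Hdac2 peak was there. Over the whole lists, Hdac1 also covered more than Hdac2 in Hd1_loxlox and Hd2lox, and less in Bry. Without Hd1_loxlox the Sox7 difference became -3.5 bp, and with windows of 2000 bp the Sox17 groups overlapped (difference 1162 bp, exact permutation p = 0.3).

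**Figure D3:**
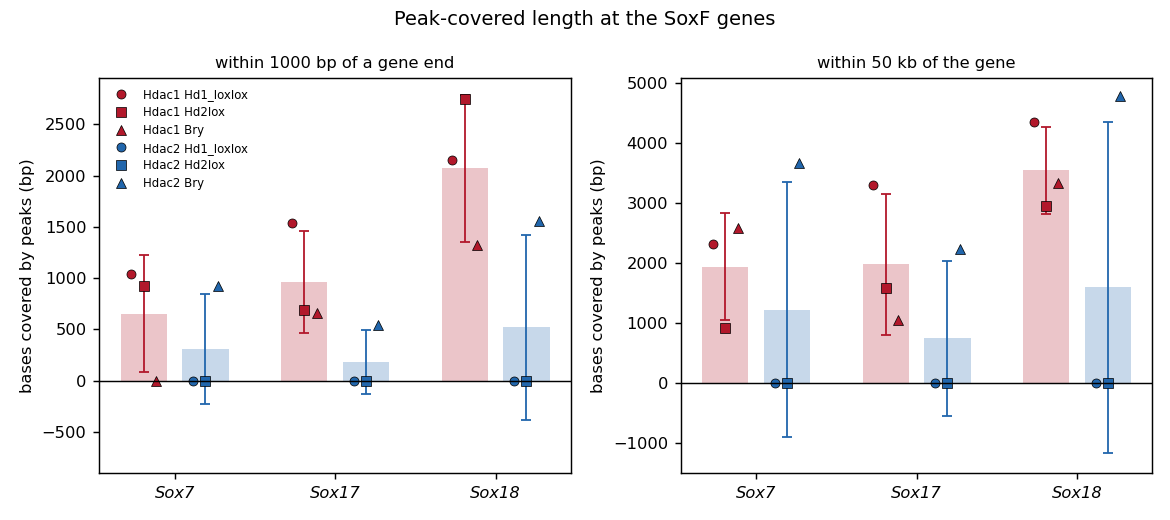
Bases covered by peaks (bp) at each SoxF gene, within 1000 bp of a gene end (left) and within 50 kb of the gene (right); points are single lists, bars are means over 3 lines and error bars are the SD, which reaches below 0 where lists at 0 bp enter it. The Hdac2 points of Hd1_loxlox and Hd2lox are at 0 bp throughout, and the Hdac2 point of Bry is the highest of the 6 within 50 kb of Sox7 and of Sox18.

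Around the genes, the 24 peaks fell into 10 separate regions, 8 of them in at least 2 lists. Near Sox7, a region beyond its upper end was shared by Hdac1 in Hd1_loxlox (63957522-63958793), Hdac1 in Bry (63957235-63958676) and Hdac2 in Bry (63957440-63958964). These peaks had 1155 bp in common, lay from 6502 bp beyond the upper end and touched no protein-coding gene. Another region, inside the neighbouring gene Pinx1, which encodes a nucleolar inhibitor of telomerase, held both Bry lists (Hdac1 at 63908176-63909316, Hdac2 at 63908166-63909380), 34.3 kb below Sox7. In Bry, Hdac1 peaks thus lay on both sides of Sox7 but not at the gene itself. That list had a peak within 50 kb of 57% of protein-coding genes, and position alone does not assign these peaks to Sox7. Sox17 had no peak within 50 kb other than those over the gene, and no protein-coding neighbour lies in that window.

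Near Sox18, 5 of the 6 peaks outside its end windows lay at an end of a neighbour. At the upper end of Gm29797 these were Hdac1 in Hd1_loxlox (181659378-181660221) and Hdac2 in Bry (181658119-181660362). At Rgs19, which encodes a regulator of G protein signalling, they were Hdac1 in Hd1_loxlox (181693165-181694510) and in Bry (181693468-181694400), and at Tcea2, a transcription elongation factor gene, Hdac1 in Bry (181679686-181680768). The sixth, Hdac2 in Bry at 181675170-181676141, lay 3529 bp beyond the upper end of Sox18 at no gene end. Such peaks cannot be assigned to Sox18 from positions alone. The remaining protein-coding neighbours had no end peak in any list (4930578I06Rik and Rp1l1 near Sox7, Lkaaear1 and Oprl1 near Sox18), except for the far ends of 2 genes, each more than 50 kb away. That of Prpf6, a splicing factor gene near Sox18, had Hdac1 in Hd1_loxlox and Hdac2 in Bry, and that of Pinx1, near Sox7, had Hdac1 in Hd1_loxlox and Bry and Hdac2 in Bry.

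Within 50 kb the covered length at Sox18 was 4339 bp for Hdac1 in Hd1_loxlox, 2943 bp in Hd2lox and 3336 bp in Bry, against 0, 0 and 4774 bp for Hdac2. The means were 3539 ± 719.9 bp for Hdac1 and 1591 ± 2756 bp for Hdac2 (SD, n = 3 each; exact permutation p = 0.4). Sox17 had 3292, 1588 and 1042 bp for Hdac1 and 0, 0 and 2235 bp for Hdac2 in Hd1_loxlox, Hd2lox and Bry, with means of 1974 ± 1174 bp and 745 ± 1290 bp for Hdac1 and Hdac2 (SD, n = 3 each; exact permutation p = 0.3). For Sox7 the values were 2312, 918 and 2583 bp for Hdac1 and 0, 0 and 3665 bp for Hdac2, with means of 1938 ± 893.4 bp and 1222 ± 2116 bp (SD, n = 3 each; exact permutation p = 0.8). The groups overlapped at all 3 genes, while 5.44% of protein-coding genes had all Hdac1 values above all Hdac2 values within 50 kb. Hdac2 exceeded Hdac1 in Bry and not in the other lines, as it did in covered length over the whole lists. Without Hd1_loxlox the Sox7 difference within 50 kb was -82 bp, against 716 bp with all lines. The differences within 50 kb were then 197.5 bp for Sox17, against 1229 bp, and 752.5 bp for Sox18, against 1948 bp.

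The Hdac2 lists of Hd1_loxlox and Hd2lox were bare for long distances here. Each SoxF gene had a peak within 50 kb in 4 lists, and 50.6% of protein-coding genes had one in at least 4. Over all protein-coding genes the share was 31.8% for Hdac2 in Hd1_loxlox, 49.8% for Hdac2 in Hd2lox and 61.5% for Hdac2 in Bry, and 56%, 53.9% and 57% for Hdac1 in the same lines. The nearest Hdac2 peak in Hd1_loxlox was 142361 bp from Sox7, 314432 bp from Sox17 and 119166 bp from Sox18. In Hd2lox it was 336079 bp from Sox7, 119674 bp from Sox17 and 70279 bp from Sox18. That last peak (181598665-181599557) lay at an end of Samd10 and overlapped Hdac1 peaks of Hd1_loxlox and Hd2lox and an Hdac2 peak of Bry, and a further Hdac2 peak of Hd2lox (181592288-181593080) lay at an end of Zfp512b over peaks of all 3 Hdac1 lists. Both antibodies therefore had peaks in Hd2lox on this stretch of chromosome 2, but Hdac2 not at Sox18.

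The other Sox genes were set beside the SoxF genes. Of 17 other Sox genes, 7 had Hdac1 at an end in at least 2 lines (30.3% of all genes) and 5 had Hdac2 (10.6% of all genes), against 3 and 0 of the 3 SoxF genes. The number of lists with an end peak had a median of 2 over the 17, of 4 over the SoxF genes and of 0 over all protein-coding genes. For Hdac2 in Hd2lox, 9 of the 17 had an end peak and none of the SoxF genes had, where 13.5% of all genes had one, a share low enough that 0 of 3 does not stand out. The difference between the groups of genes was not tested, and genes are not replicates.

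Sox4, Sox11 and Sox12, the SoxC group of progenitor and neural regulators, were in 5 lists each, as were Sox1, a neural progenitor factor, and Sox13, a SoxD factor, where 7.19% of all genes were in at least 5. In Hd2lox, the Hdac2 coverage at the ends of these genes was 807 bp at Sox4, 864 bp at Sox11, 446 bp at Sox12, 585 bp at Sox1 and 970 bp at Sox13. All 5 thus had Hdac2 in Hd2lox and in Bry, where the SoxF genes had it in Bry alone. Sox30, a testis factor, was in 4 lists with at most 443 bp. Sox2 and Sox3, factors of pluripotent and neural cells, and Sox5 had both antibodies in Hd2lox and no end peak in the other lines, the reverse of SoxF for Hdac2, and were chosen for mention after their values were seen. Sox6, Sox14, Sox15 and Sry had no end peak in any list, and are named outside the rule.

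**Figure D4:**
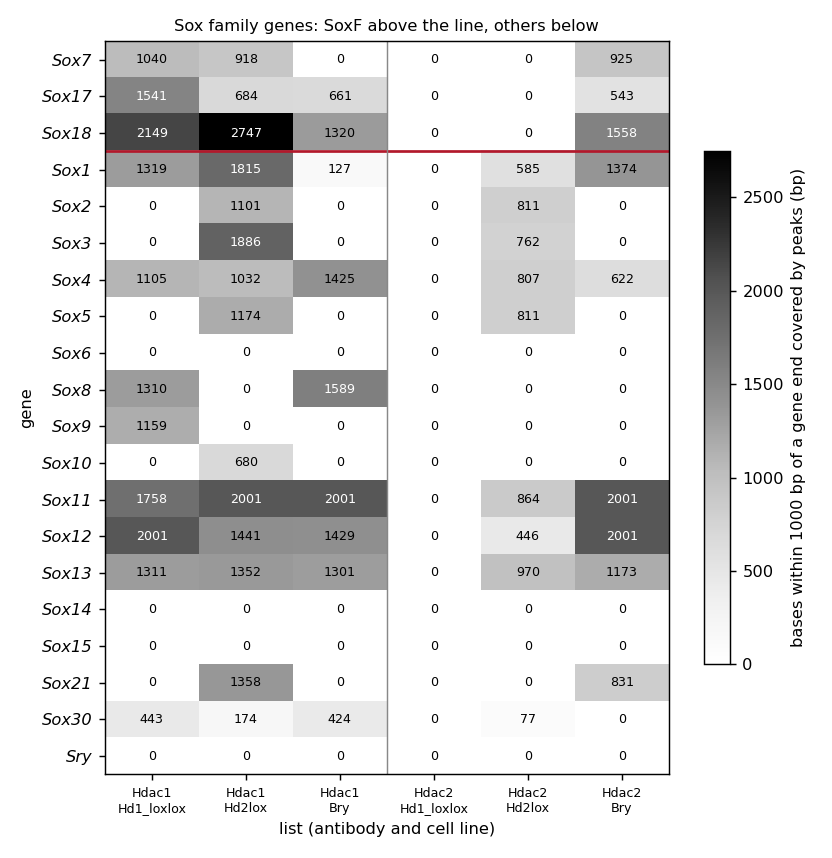
Bases within 1000 bp of a gene end covered by peaks (bp, printed in each cell and as shade) for the SoxF genes, above the line, and 17 other Sox genes in the 3 Hdac1 lists and the 3 Hdac2 lists. The column of Hdac2 in Hd1_loxlox is at 0 bp for every gene shown, and that of Hdac2 in Hd2lox is at 0 bp for the SoxF genes and above 0 bp for 9 of the others.

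Genes placed above or below the SoxF factors in endothelium were counted in the same way. These genes were also chosen with earlier results of these data known. Of 13 upstream genes, 7 had Hdac1 at an end in at least 2 lines (30.3% of all genes) and 1 had Hdac2 (10.6% of all genes). Hdac2 in Bry was at 8 of the 13, where it was at 34.6% of all genes, and Hdac2 in Hd2lox was at 2, where it was at 13.5%. Notch1, the arterial Notch receptor, was in 5 lists. The endothelial ETS factor genes Erg and Ets1, the Sox18 partner Mef2c and Rbpj, the DNA-binding factor of Notch signalling, had no end peak in any list, although Erg and Rbpj had a peak inside the gene in 5 lists each, Ets1 in 4 and Mef2c in 1. Over all genes, 10.8% had one in at least 5 lists and 20.8% in at least 4, without regard to gene length. Erg, Ets1, Mef2c and Rbpj are long genes, and only outermost annotated ends were used, so a start inside a gene is not counted.

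Of 14 genes reported as SoxF targets, 4 had Hdac1 at an end in at least 2 lines (30.3% of all genes) and 4 had Hdac2 (10.6% of all genes), so the Hdac1 share was near that of all genes. No list had an end peak at 7 of them. Notch1, which is in both lists, Efnb2, the arterial ephrin ligand, and Rasip1, a regulator of vessel lumen formation, were in 5 lists. The genes with no end peak were the angiopoietin receptor Tek, Tie1, the tight junction gene Cldn5, the adhesion gene Vcam1, the guidance receptor Robo4, the venous factor Nr2f2 and Runx1, which drives the switch from endothelium to blood. Runx1 and Nr2f2 had a peak inside the gene in 4 lists each and Vcam1 in 1, and Tek, Tie1, Cldn5 and Robo4 had none there. Runx1 is a long gene too, and starts inside it are not counted as ends. Across all protein-coding genes 52% had no end peak in any list.

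Genes whose coverage was most like that of each SoxF gene were sought among those with the same combination of lists, by the mean absolute difference in covered length at the ends over the 6 lists. For Sox7 these were Tmem51 at 40.3 bp, Ube2v2 at 44.8 bp, Pld2 at 45.8 bp, Ppa1 at 48.8 bp and Ube2d2a at 50.2 bp. The closest to Sox17 were 2810408A11Rik at 61.2 bp, Cenpv at 90.8 bp, Gm34296 at 117.3 bp and Samd5 at 148.2 bp. Sox18 had Tmsb10 at 180.8 bp, Actg1 at 198.7 bp, Ppp3r1 at 204.0 bp, Sertad2 at 218.2 bp and Dipk2a at 227.3 bp. No Sox gene was among them.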

How the data were processed

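Chromatin of ES-derived haemogenic endothelium was immunoprecipitated with Hdac1 (Diagenode) or Hdac2 (abcam) antibodies, per the labels. Bowtie2 2.2.9, SAMtools 1.3.1, bcl2fastq and MACS2 2.1.1.20160309 are named, with the build mm10, per the submitters' processing notes. How the peak threshold was set and whether input was the control is not stated there, and input was not analysed here (3 libraries). The authors deposited other values than counts: chromosome, start and end of each peak, per library, with no score. Positions are printed 1-based. Read depth is unknown.

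Genes came from RefSeq GRCm38.p6 (21776 protein-coding; 111 were left out because they are listed below 3 Mb, or 500 kb on Y, where the assembly is a gap). The table has no strand. An overlap of 1 bp counted. Covered length was compared by exact two-sided permutation over lists (Python 3.11.15, numpy 2.4.6), with Benjamini-Hochberg adjustment over all genes. The computation of covered length was checked on simulated lists for Hdac1 minus Hdac2 at gene ends, where the Hdac1 lists held planted peaks only. The planted length was returned at 200 of 200 planted genes among 7577, and 0 others had a difference. Only long genes spaced well apart were used, which leaves out the SoxF genes, and each planted peak lay wholly inside an end window. The Hdac2 lists held no peak at these genes. Joined windows, as at Sox18, and peaks partly inside a window, as at Sox17, were therefore not checked. The check does not cover the power of the permutation test, whose exact p cannot fall under 0.1. Lists of a line are paired, since the labels give the same cell line. Deviations of the Hdac1 and Hdac2 lists from their means correlated at 0.0221 in Hd1_loxlox, 0.502 in Hd2lox and 0.275 in Bry over 10454 genes.

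The SoxF genes and the gene lists were chosen with earlier results of these data known. Named were the SoxF genes, their protein-coding neighbours within 50 kb, other Sox genes in at least 3 lists, upstream and target genes in at least 5 lists or none, and the 5 genes closest to each member, of which 1 of those for Sox17 is not reported here. Promoter sequences of Sox7, Sox17 and Sox18 are not used here. Alternatives changed the windows, the overlap, the peak width, the lines used and the pairing.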

Additional observations from a re-analysis of the deposited data

Results flagged for a closer look

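Hdac1 minus Hdac2 in covered length had opposite signs in different lines, except at the ends of Sox17, each line having 1 list per antibody, and the difference between lines was not tested. At the gene ends it was 1040 bp in Hd1_loxlox, 918 bp in Hd2lox and -925 bp in Bry for Sox7. For Sox18 it was 2149, 2747 and -238 bp in the same lines, while for Sox17 at the ends it was positive in all, at 1541, 684 and 118 bp. Within 50 kb the values were 2312, 918 and -1082 bp for Sox7, 3292, 1588 and -1193 bp for Sox17 and 4339, 2943 and -1438 bp for Sox18. The values of Hd1_loxlox and Hd2lox, all positive, stand against an Hdac2 list with 0 bp. The 118 bp at the ends of Sox17 in Bry stands against 543 bp of Hdac2. Over all genes Hdac2 had a peak within 50 kb in 31.8% of cases in Hd1_loxlox and 49.8% in Hd2lox, against 61.5% in Bry. For Hdac1 the shares were 56%, 53.9% and 57%. The whole lists covered 12.1 Mb for Hdac1 and 5.60 Mb for Hdac2 in Hd1_loxlox. In Hd2lox they covered 11.6 and 8.01 Mb, and in Bry 11.6 and 13.3 Mb, in the same order of antibodies. Hdac1 was thus above Hdac2 in Hd1_loxlox and Hd2lox and below it in Bry over all peaks too. The part of these shares and lengths in the result was not tested.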

How the results depend on the processing

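Of 78 recomputed values, 70 kept their direction, or stayed within 1.5 times for counts. With peaks at least as wide as the median of their list, the Sox7 difference (Hdac1 minus Hdac2) became 0 bp at the ends, with 0 lists at an end, and -27.7 bp within 50 kb, since all its end peaks and some peaks farther out are narrower than that. Values that kept their direction could still move by over 1.5 times: within 50 kb Sox18 had 430 bp with wide peaks alone and 3828 bp with a flank of 100 kb, against 1948 bp, and at its ends Sox17 had 339.7 bp with windows of 500 bp, against 781 bp. Without the Hd1_loxlox Hdac2 list alone, Sox7 had 105.2 bp within 50 kb, against 716 bp. With 50% of the peak inside the windows, 2 lists had Sox17. Leaving out a line or the Hd1_loxlox Hdac2 list gave, at the ends, -3.5 to 979 bp for Sox7, 401 to 1112.5 bp for Sox17 and 955.5 to 2448 bp for Sox18, and within 50 kb -82 to 1615 bp, 197.5 to 2440.0 bp and 752.5 to 3641 bp. Sox7 was then at an end in 2 to 3 lists and Sox17 and Sox18 in 2 to 4, partly because fewer lists remained. Pairing by line changed no call (sign-flip permutation p of 0.25 to 0.75, where 0.25 is the smallest possible). Windows at start sites alone were not run, since the gene table gives no strand. Unknown depth limits every absence of a peak.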
